A study of Dugesia japonica with 4 samples.

Results

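The genes described here are 10 transcripts of the regenerating planarian head that were more abundant in the inside of tissue sections than at their rim and whose right over left ratio stayed under a set limit. They are DJKW.25105, DJKW.24450, DJKW.20905, DJKW.24835, DJKW.23595, DJKW.16536, DJKW.10448, DJKW.921, DJKW.22283 and DJKW.16301, chosen from 38792 features. The data are 4 Visium libraries, wells A to D, of 1 group: fresh-frozen head blastema of wild-type Dugesia japonica at a time labelled 5 dpa, cut into sections 8 µm thick and laid on arrays of barcoded spots. A spot holds several cells, so fewer cells of a type and less RNA per cell cannot be told apart in any value below. The labels do not say whether the wells come from different animals, and p-values concern the spread between these libraries, estimated in part across all features. They also name no body axis for the array, so "right" is the side of higher array columns and "left" that of lower ones, each relative to the mean column of a section. The wells held 180 to 433 spots under tissue, and well A, the shallowest in total, stood apart in several of the values below.

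In a planarian, an epidermis and layers of body wall muscle enclose a solid interior, in which nerve cords, the branches of the gut and other tissue are embedded in parenchyma. The parenchyma also holds the neoblasts, the dividing cells from which all new tissue is made, and a blastema is the mass of their differentiating progeny that covers a wound. The feature lists give an identifier and no name, none of 26 marker names looked up occurs among them, and nothing is said here of what the 10 genes encode.

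The choice ran in steps. Of 28999 DJKW features, 4524 had a unique molecular identifier (UMI, the count of 1 captured molecule) in at least 20% of the pooled spots, and 2778 of these averaged at least 50 CPM over the wells (CPM is a feature's count scaled to a fixed total for the library or zone). A condition that well A hold at least about 1/4 of the lowest other well's level removed 94 and left 2684, called abundant features below. Interior spots had tissue on all 6 sides and edge spots did not. Counts were summed over each zone, and log2 ratios of CPM were taken with 5 CPM added to both sides. Interior over edge was above 0 in all 4 wells with a mean of at least 1 for 114 features, 4.25% of the abundant ones. A mean right over left under 0.7 kept 10 of them and left out 104. These values chose the genes, so they are described without a test.

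The limit on right over left did not yield genes without a lean to the right. All 10 had a mean right over left above 0, from 0.43 for DJKW.20905 to 0.68 for DJKW.22283, and 9 of 10 were above 0 in every well. Among abundant features 11.5% were above 0 in all 4 wells, and the median abundant feature stood at -0.23. Nor did any of the 114 interior features average below 0, and 1 of them averaged under 0.5. The 10 genes are thus interior genes with a mild right lean under a limit, and 9 of them lay just under it, at 0.6 or more. The nearest genes inside the limit stood at 0.68 and 0.66 and the nearest outside it at 0.73 and 0.76. At the other limit, the lowest mean interior over edge ratios inside were both 1.03, and the highest of those left out were 0.96 and 0.95. A further 27 features with a smaller interior excess, between 0.8 and 1, met all other conditions.

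**Figure D1:**
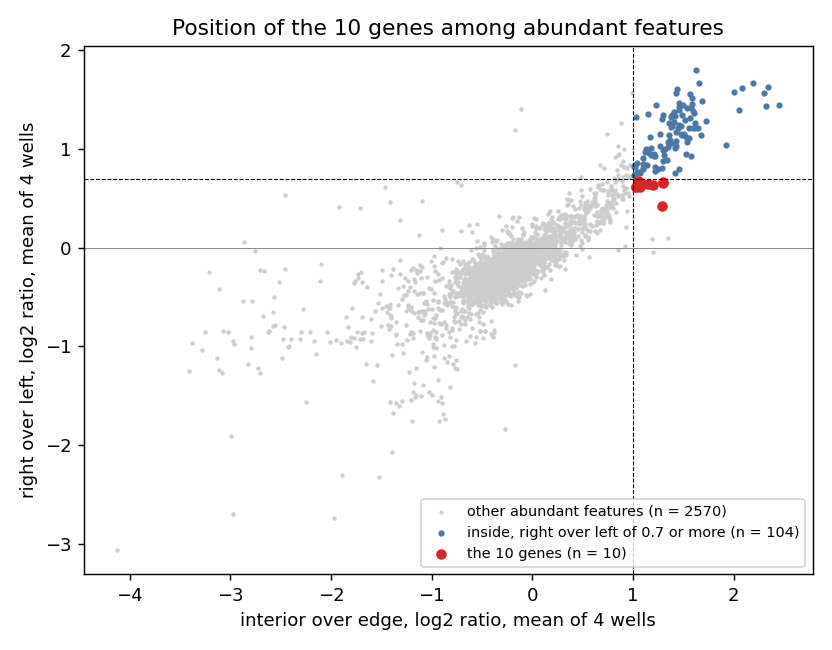
Mean log2 ratio of right over left (vertical) against mean log2 ratio of interior over edge (horizontal) for 2684 abundant features, with the limits of 0.7 and 1 as dashed lines. The 10 genes (red) lie under the upper limit, 9 of them close to it and all above 0, at the lower left of the 104 interior genes with a stronger right lean (blue).

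Across the 2684 abundant features both ratios went together, with a correlation of 0.812. This is across genes, which share the same spots and totals, and is a description. Among abundant features, those nearest to an interior excess with no right lean were 3 with a mean interior over edge of at least 1. Their mean right over left was between -0.04 and 0.10. All 3 failed because interior over edge was not above 0 in well A, where it was -0.21 to 0. A further 31 features met the interior condition but had been removed by the condition on the level in well A. Their right over left is not given here.

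The scale of the ratios bears on which genes qualify. With TMM factors, which centre the bulk of genes, the median abundant feature moved up by 0.23 for interior over edge and by 0.27 for right over left. On that scale the right over left means of the 10 genes were 0.70 to 0.93, all at or above the limit, and their interior over edge means were 1.27 to 1.53. The rule then chose 6 features and none of these 10. Both means stayed above 0 for all 10 genes on either scale.

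DJKW.25105 was the most abundant of the genes. Its interior levels in wells A to D were 779, 2172, 2034 and 2367 CPM, against 415, 782, 902 and 980 CPM at the edge. Well A was lowest in both zones, and within each well the interior was higher. DJKW.24450 followed with 527, 1128, 891 and 889 CPM inside in wells A to D, against 222, 572, 453 and 457 CPM at the edge. Here too well A was lowest, and its interior level lay within the range of the other wells' edge levels.

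The largest mean ratios of interior over edge were those of DJKW.16536 and DJKW.16301, near to each other. DJKW.16536 stood at 81.0, 333, 173 and 160 CPM inside in wells A to D and at 39.1, 104, 67.6 and 62.4 CPM at the edge, a mean log2 ratio of 1.30 ± 0.27 (SD, n = 4). DJKW.16301, the scarcest gene, stood at 85.5, 97.9, 88.7 and 109 CPM inside and at 20.4, 48.8, 36.7 and 43.3 CPM at the edge, a mean log2 ratio of 1.29 ± 0.38 (SD, n = 4). The interior levels of DJKW.16301 were close to each other in all wells and lay above every edge level, while those of DJKW.16536 differed several-fold between wells and overlapped the edge levels.

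DJKW.20905 had the lowest right over left of the genes and a high interior ratio, 1.29 ± 0.50 (SD, n = 4). Its interior levels were 333, 569, 581 and 903 CPM in wells A to D and its edge levels 218, 235, 187 and 277 CPM, with no overlap between the zones. DJKW.23595, second lowest for right over left, stood at 149, 253, 244 and 299.6 CPM inside and at 69.7, 115, 123 and 132 CPM at the edge. These zones do not overlap either.

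Over the 10 genes the mean ratios of interior over edge ran from 1.03 to 1.30, which is 2.04-fold to 2.45-fold, a narrow band. For 7 of 10 the lowest interior level lay above the highest edge level of any well. The rule compared these same zones, so such separation is partly built into the choice. It was not counted over the abundant features. The level in well A was the lowest of the 4 wells for 9 of 10, the exception being DJKW.10448, whose levels were 106, 128, 81.4 and 67.4 CPM in wells A to D. The genes rested on 704 to 15110 UMIs over all wells, but on only 15 to 173 UMIs each in the interior of well A, which had 23 interior spots.

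**Figure D2:**
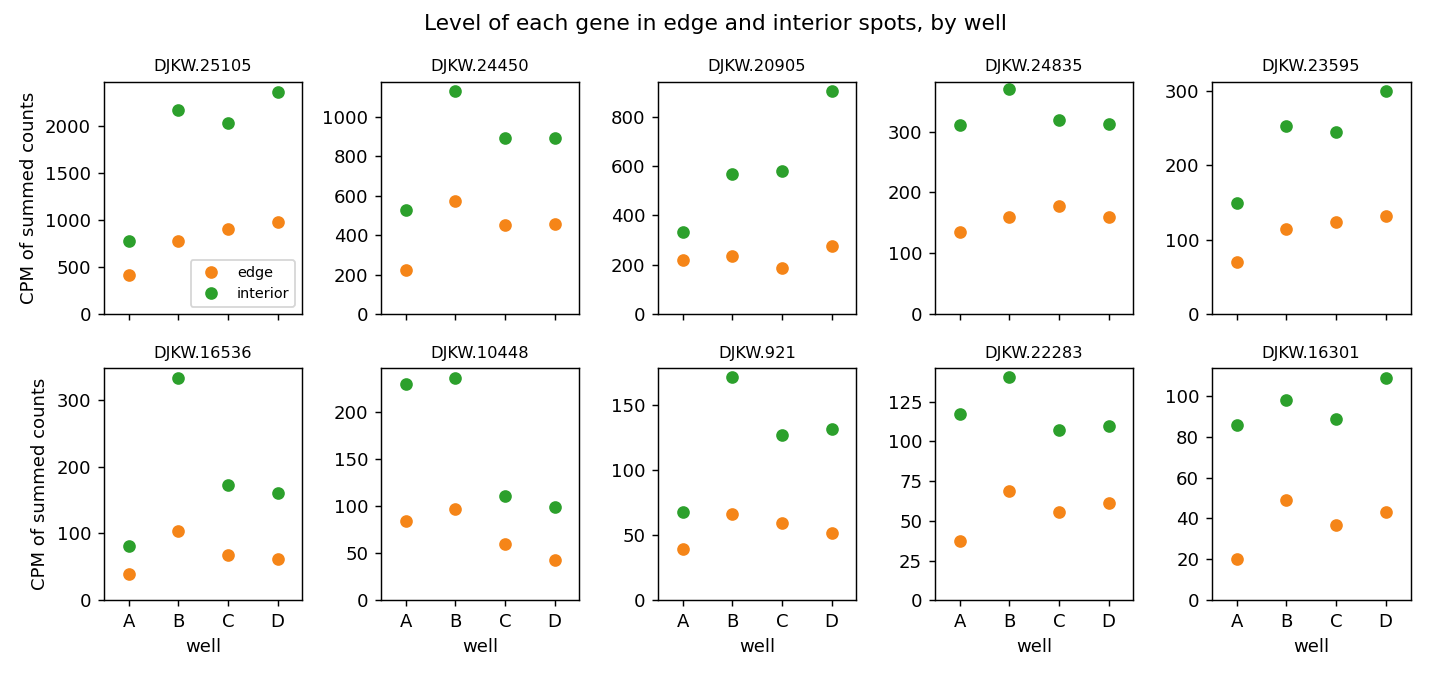
CPM of summed counts in edge (orange) and interior (green) spots of wells A to D, 1 panel for each of the 10 genes with its own axis from 0. The interior point is above the edge point in every panel and well, and well A is the lowest interior well for all genes but DJKW.10448 and DJKW.22283.

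The 10 genes together took 0.455% ± 0.130 (SD, n = 4) of all interior UMIs and 0.198% ± 0.047 (SD, n = 4) of all edge UMIs. In single sections the same order was nearly always found: of 45 sections with at least 1 interior spot, 43 had a higher summed level inside than at their own edge. The 2 others were in wells A and C. For single genes, counted in 33 sections with at least 3 interior spots, the interior was higher in 28 sections for DJKW.921 and in 30 to 32 for the other genes. Sections of a well share a library and are not replicates. Their spots also make up the sums that chose the genes, so this order is partly built in. The sections were not counted for other features. The summed interior level per section ran from 1026 to 5381 CPM (well A), 4544 to 6752 (well B), 1488 to 5862 (well C) and 4113 to 6699.8 (well D). Interior spots also held more UMIs than edge spots, the median spot by 1.46 ± 0.271 times (SD, n = 4), and 8 genes were chosen with edge and interior spots matched by UMI count, 7 of them among these 10.

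**Figure D3:**
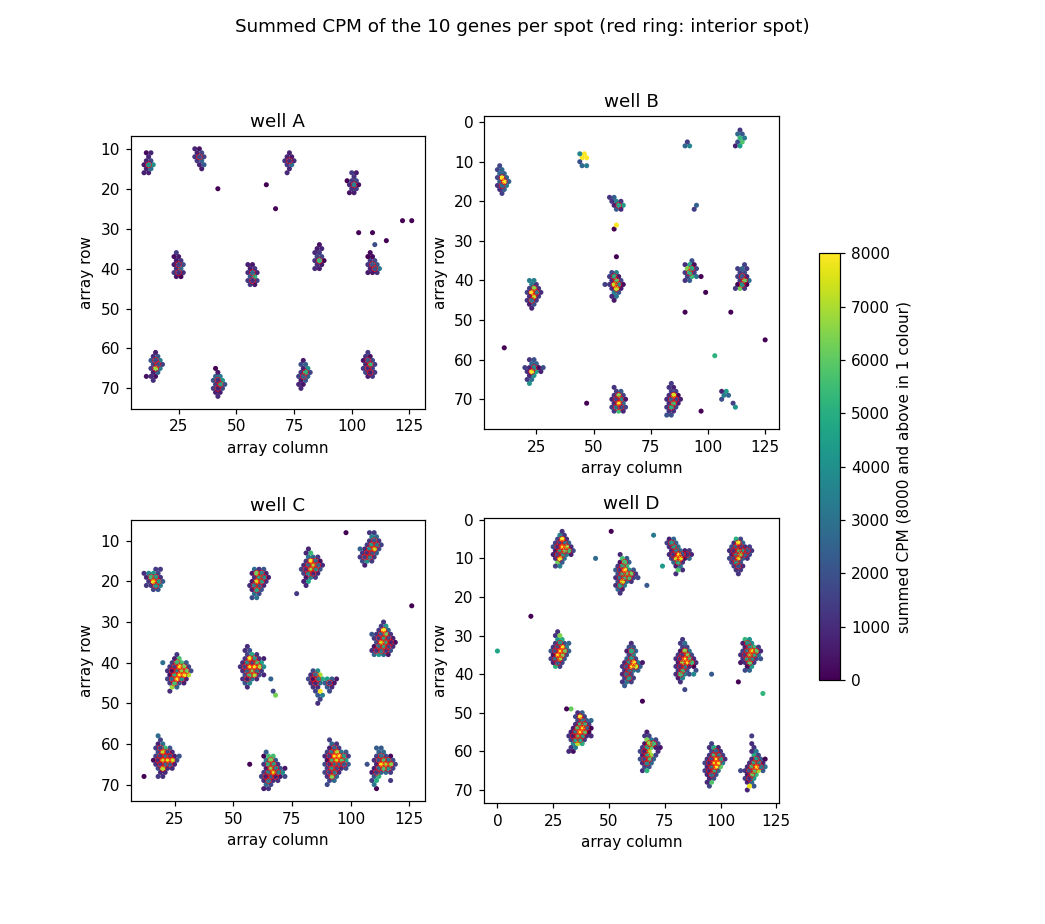
Tissue spots of wells A to D at their array row and column, coloured by the summed CPM of the 10 genes, with interior spots ringed in red. High levels lie within many of the ringed cores of sections in wells B, C and D. The highest section of well B, at 7535 CPM, holds no ringed spot. Well A has few ringed spots and lower levels.

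Leaving each well out of the choice gave a reading of interior over edge that the choice had not used. With wells A, B and D used, 6 genes were chosen and all 6 were higher inside in well C, with a median log2 ratio of 0.9996, and 3 were at 1 or more. Among the abundant features of that choice, 21.9% were higher inside in well C, 3.47% were at 1 or more and the median was -0.34. With well B left out 7 genes were chosen, 7 were higher inside there, 4 were at 1 or more and the median was 1.11, against 25.5%, 4.33% and -0.37 over abundant features. With well D left out 7 were chosen, 7 were higher inside, 5 were at 1 or more and the median was 1.26, against 23.7%, 4.1% and -0.35. The wells lie close in these readings, and 4 to 7 of the genes chosen each time were among the 10.

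Well A gave a different picture. Without it, the conditions on its level and on its interior over edge fell away as well. The rule then chose 84 genes, of which 6 were among the 10 and 49 among the 104 with a stronger lean. In well A 76 of the 84 were higher inside and 58 were at 1 or more, with a median of 1.27, against 46.1%, 6.09% and a median of -0.03 over 2643 abundant features. Yet 73 of the 84 had a right over left of 0.7 or more in well A, and their median there was 1.92. When only the right over left mean left out well A, 63 genes qualified, 9 of them among the 10 and 54 among the 104. Which interior genes fell under a right over left of 0.7 thus depended on well A, though not on it alone. With TMM factors none of the 10 qualified.

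The right over left values by well show how well A differed. For wells A to D in turn, the median of the 10 genes was 1.08, 0.55, 0.25 and 0.56, while that of the 104 was 2.43, 0.95, 0.49 and 0.71. The highest of the 4 wells was well A for 8 of 10 genes, and the lowest was well C for 7 of 10. Interior spots were themselves uneven in well A, where 72.7% of those with a side lay on the right, compared with 60.0%, 49.6% and 52.1% for wells B to D; their part in the result was not tested.

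DJKW.20905 ran against the others in well A. Its right over left there was -0.61, with 187 CPM on the right and 287 CPM on the left, and 0.56, 0.65 and 1.10 in wells B, C and D. Over wells B to D its mean was 0.77, above the limit, so it qualified through well A. DJKW.10448 was the reverse, with 1.82 in well A and 0.33, 0.11 and 0.33 in the other wells. DJKW.16536 was the steadiest, at 0.62, 0.83, 0.65 and 0.54 in wells A to D.

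**Figure D4:**
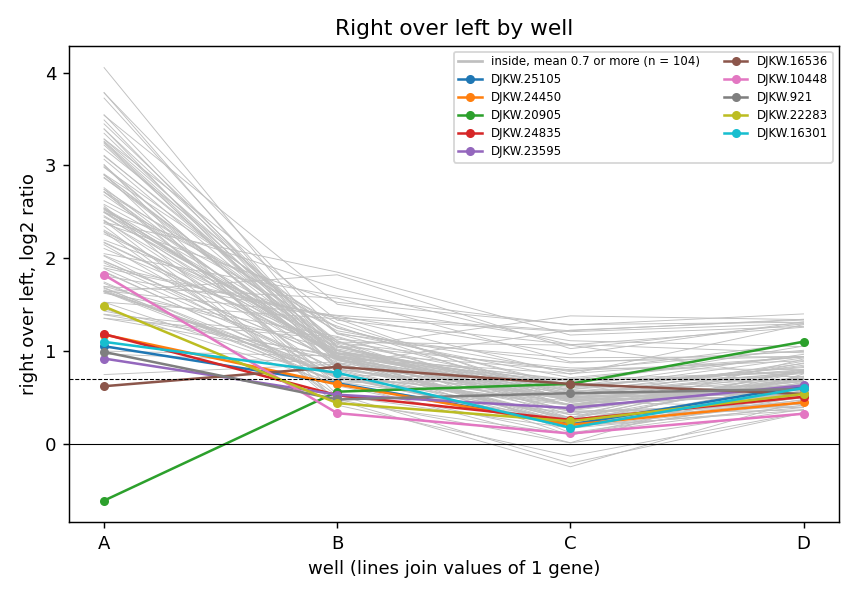
Log2 ratio of right over left in each well for the 10 genes (coloured) and the 104 interior genes with a mean of 0.7 or more (grey); the dashed line is the limit of 0.7. In well A the grey lines spread up to about 4 while 9 of the 10 genes lie between 0.62 and 1.82 and DJKW.20905 at -0.61, and in wells B to D both sets share much of their range.

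The lean was present within each zone. Taken inside interior spots alone, right over left was above 0 in all 4 wells for 9 of 10 genes, for 70 of the 104 and for 7.68% of abundant features. The medians of the 10 in wells A to D were 0.94, 0.24, 0.22 and 0.40, and those of abundant features -0.03, -0.25, -0.24 and -0.29. The left interior held only 6 spots in well A and 12 in well B, so the values of these wells are uncertain. Some values counted as above 0 were near it, the lowest being 0.01 for DJKW.16301 in wells A and C. Within edge spots alone it was above 0 in all 4 wells for 7 of 10, for 100 of the 104 and for 9.02% of abundant features. There the medians of the 10 were 0.93, 0.29, 0.12 and 0.38, and those of abundant features -0.07, -0.27, -0.11 and -0.17. When right over left was averaged over both zones, so that the number of interior spots on a side no longer counts, 32 genes met the rule, all 10 among them.

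A finer division of the width showed where the genes peaked. Section spots were put into a left, a middle and a right band of about equal width. All 10 genes were highest in the middle band in wells B, C and D, and 8 of 10 were highest in the right band in well A. Of abundant features, 21.6%, 18.4% and 19% were highest in the middle band in wells B, C and D, and 32.9% in the right band in well A. The 104 interior genes with a stronger right lean had nearly the same order, with 94, 93 and 103 of them highest in the middle band of wells B, C and D and 97.1% in the right band of well A. The summed share was 0.157% on the left, 0.436% in the middle and 0.275% on the right in well B. In well C it was 0.158%, 0.433% and 0.289%, and in well D 0.169%, 0.492% and 0.308%. In well A it was 0.104%, 0.152% and 0.195%. In wells B to D the genes thus stood highest in the middle band, lower in the right band and lowest in the left band. In well A their sum stood highest on the right. The bands are cut from the same columns as the sides. An interior spot also has tissue on both its left and its right, so choosing interior genes itself favours the middle band. These values therefore describe the genes and are not tested.

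The first comparison that the rule had not used was within the rim: edge spots touching an interior spot (609 spots) against edge spots touching none (273 spots). It asks whether the level already rises within the rim towards the core. None of the 10 genes passed at a Benjamini-Hochberg adjusted p under 0.05 by edgeR's quasi-likelihood method, in which each library was its own block. Over 6965 features tested, 1.44% were higher and 1.51% lower next to the interior. At an unadjusted p under 0.05, 1 of the 10 genes was higher and 0 lower, and with DESeq2 the adjusted count was also 0 and the unadjusted count 1. The median log2 fold change of the 10 was 0.02 and that of all tested features 0.01.

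DJKW.20905 was that gene. It stood at 257, 224, 203 and 295 CPM next to the interior in wells A to D and at 128, 255, 125 and 204 CPM in the rest of the rim, higher in 3 of 4 wells (log2 fold change 0.49 ± 0.17, SE, edgeR adjusted p = 0.232). It passed without well B (0.77, edgeR adjusted p = 5.70e-03) and with no filter on low counts (0.58, edgeR adjusted p = 5.52e-04).

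The wells differed among themselves in this comparison. In well A all 10 genes were higher next to the interior, where 55.4% of abundant features were, with a median log2 ratio of 0.996. In well B all 10 were lower, with a median of -0.67, where 52.9% of abundant features were higher. In wells C and D 5 and 6 of the 10 were higher, with medians of 0.03 and 0.06, near the 47.4% and 53.8% of abundant features. Well B was the only well with sections that held no interior spot: 21 of its 78 rim spots away from the interior lay in such sections, and the 10 genes summed to 4489 CPM there, against 1911 CPM in the 39 such rim spots of sections with an interior. Singly, the sections without an interior stood at 3073, 3152 and 7535 CPM, the last with 7 spots. The 18 rim spots outside any section summed to 2423 CPM. The part of these spots in the result of well B was not tested. Spots next to the interior also held more UMIs, the median spot by 1.52 ± 0.079 times (SD, n = 4), and with spots matched by UMI count 0 of the 10 passed.

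**Figure D5:**
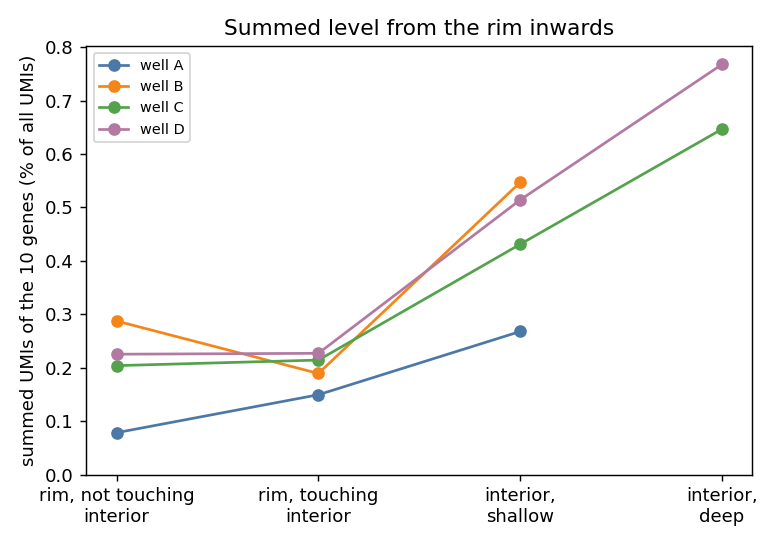
Summed UMIs of the 10 genes as a percent of all UMIs, from rim spots that do not touch the interior to deep interior spots, 1 line for each well. The level is nearly flat within the rim in wells C and D, lower next to the interior in well B, higher there in well A, and in all wells highest inside, with deep spots present in wells C and D alone.

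The second comparison set interior spots touching at least 1 edge spot (shallow) against interior spots with interior spots on all 6 sides (deep). Deep spots existed in wells C and D only, 20 and 10 in number, so this rests on 2 libraries. With so few sums, edgeR's p-values here rest more on spread shared across features than on a gene's own spread between the 2 wells. Deep spots are also part of the interior sum that chose the genes. They held 310664 of 1836977 interior UMIs in well C and 155235 of 1652159 in well D. A high deep level helped a gene pass the rule, so an excess in deep spots is partly built in. Of the 10 genes, 8 were higher in deep spots and 0 lower in edgeR's quasi-likelihood test (adjusted p under 0.05), while 4.09% of 6228 features tested were higher and 2.47% lower. Of the 104 genes with a stronger right lean, 81 were higher. Well by well, the deep level was above the shallow one for 10 of 10 genes in well C and for 9 of 10 in well D, against 29.7% and 37.5% of abundant features. The median log2 fold change was 0.79 over the 10 genes, 0.68 over the 104 and -0.05 over all tested features. DESeq2 called 0 of all features in this comparison (2 of the 10 genes at an unadjusted p under 0.05), and with deep and shallow spots matched by UMI count edgeR called 0 of the 10 (7 unadjusted). The median log2 fold change of the 10 was 0.74 with DESeq2 and 0.61 with matched spots.

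DJKW.22283 had the largest fold change of deep over shallow. It stood at 161 CPM in deep and 96.3 CPM in shallow spots of well C, and at 232 and 96.9 CPM in those of well D (log2 fold change 1.13 ± 0.20, SE, edgeR adjusted p = 4.40e-06). DJKW.20905 was next, with 943 CPM deep and 507 CPM shallow in well C and 1572 and 834 CPM in well D (1.05 ± 0.17, SE, edgeR adjusted p = 3.93e-07). For both genes deep spots were higher in both wells. The CPM are scaled to totals and the fold changes by TMM factors. With library totals the log2 fold changes of these genes were 0.96 and 0.90. With spots matched by UMI count their fold changes were 1.16 and 0.80 (edgeR adjusted p = 0.0572 and 0.137), and with DESeq2 1.13 and 1.04 (DESeq2 adjusted p = 0.999 for both).

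The 2 genes that did not pass were DJKW.921 and DJKW.10448. DJKW.921 stood at 151 CPM deep and 122 CPM shallow in well C but at 122 and 132 CPM in well D (log2 fold change 0.32 ± 0.21, SE, edgeR adjusted p = 0.448). DJKW.10448 stood at 113 CPM deep and 111 CPM shallow in well C and at 116 and 96.9 CPM in well D (0.28 ± 0.22, SE, edgeR adjusted p = 0.572). Neither passed the threshold, which does not show that the levels were equal. Deep spots also carried more UMIs, the median spot by 1.24 ± 0.0414 times (SD, n = 2), and 70.0% of them lay on the right in both wells, compared with 46.2% and 50.8% of shallow spots in wells C and D; the part of side in the result was not tested.

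The third comparison ran along the long axis of the sections, the array rows, within interior spots. Middle spots lay within 1/3 of the distance from the mean row of the section to its ends, and the others were outer spots. None of the 10 genes passed in edgeR's quasi-likelihood test (adjusted p under 0.05), with 1 higher and 0 lower at an unadjusted p under 0.05 (with DESeq2, 0 adjusted and 2 higher unadjusted). Over 4353 features tested, 0.138% were higher and 0.115% lower in the middle. The median log2 fold change of the 10 was 0.32 and that of all tested features 0.02. DJKW.20905 was again the one at an unadjusted p under 0.05. It stood at 342, 643, 632 and 1077 CPM in the middle of wells A to D and at 309, 345, 434 and 594 CPM in the outer parts, higher in 4 of 4 wells (0.67 ± 0.19, SE, edgeR adjusted p = 0.604).

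Well A again stood apart along the length. The median log2 ratio of middle over outer in wells A to D was 1.70, 0.37, -0.09 and 0.27, and the genes higher in the middle numbered 10, 9, 4 and 7. The shares of abundant features higher in the middle were 56.3%, 37.9%, 51.1% and 64.5%. Well A had 7 outer interior spots, in which single genes had between 1 and 24 UMIs, so its ratios there are uncertain.

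The 10 genes tended to vary together from spot to spot, though not in every pair. Over the 45 pairs of genes, the median Pearson correlation of log-scaled counts across interior spots was 0.417 for well A (23 spots), 0.391 for well B (32 spots), 0.368 for well C (139 spots) and 0.288 for well D (140 spots). With other abundant features the medians were between -0.07 and -0.03, and with the 104 genes of stronger right lean 0.474, 0.376, 0.399 and 0.341 in wells A to D. The closest pair over wells C and D was DJKW.25105 with DJKW.20905, at a mean of 0.69. The lowest pair across interior spots stood at -0.33, -0.05, 0.12 and 0.08 in wells A to D. Across edge spots the median between the 10 genes was 0.205, 0.359, 0.208 and 0.201, and that with other abundant features between -0.01 and 0.08. The summed level of the 10 followed that of the 104 across interior spots with correlations of 0.883 to 0.935. The genes of each pair share spots, depth and position, and these correlations are descriptions. Across interior spots, the median between the 10 genes was lower than that with the 104 in wells A, C and D and higher in well B. This difference was not tested.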

How the data were processed

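Raw UMI counts per feature and spot were deposited by the authors for 4 Visium libraries, written by Space Ranger 2.0.1 per the file headers. The submitters' processing notes also name Seurat. The genome build and gene models were not given in the sources used here. Zones came from the deposited spot positions. Depth was 1499569 UMIs over 180 spots in well A, 2190105 over 201 in well B, 4395756 over 402 in well C and 3752977 over 433 in well D, so values of wells A and B are less precise. No pair of libraries agreed within sampling noise (lowest chi-square per degree of freedom 11.5), and each pair shared 19 to 112 spot barcodes, which name array positions.

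Groups of at least 5 connected spots were sections (48). Ratios used CPM of zone sums plus 5. Sums per library and zone were compared by quasi-likelihood tests with TMM factors after filterByExpr (edgeR 4.0.16, R 4.3.3), with the library as a term (the pairing), since both zones come from the same library. A library entered with at least 5 spots and 20000 UMIs per sum. P-values were adjusted over all features tested. DESeq2 1.42.0, library totals, no filter, no library term, spots matched by UMI count within 25%, other zone limits and leaving out each library were alternatives. The procedure was also run on simulated data in which every feature had the same spread. That run does not show how the calls fare where features differ in spread.

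The genes, lists and tests were chosen with earlier results of these data known. All 10 identifiers are given, because the rule defines them. Those with values by well are the 2 most abundant, the 2 with the highest interior over edge, the 2 with the lowest right over left and, for each test, up to 2 per direction that passed in every library, here ordered by fold. The others with values, including DJKW.20905 where it did not pass, were chosen after their values were seen.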

Additional observations from a re-analysis of the deposited data

Results flagged for a closer look

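Of 55 sets of 4 well values, 8 held 1 well far from the others by Dixon's criterion, which chance alone meets in about 1 of 20 independent sets. These sets share the same wells and genes that vary together, and levels, interior over edge and right over left were used to choose the genes, so the count is a description. The well was A in all 8. Its level of DJKW.24450 was 267 CPM, where the other wells had 636 to 697, and its level of DJKW.921 was 43.3 CPM, where they had 86.9 to 89.5. Interior over edge of DJKW.24450 was 1.23 in well A and 0.95 to 0.97 in the others. Right over left of DJKW.10448 was 1.82 in well A and 0.11 to 0.33 in the others. Middle over outer interior was 2.55 for DJKW.24835 (0.08 to 0.36 in the others), 3.04 for DJKW.10448 (-0.23 to 0.12) and 2.11 for DJKW.921 (-0.38 to -0.10), from 7 outer spots. The summed share of the 10 genes in edge spots was 0.128% in well A and 0.212% to 0.227% in the others.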

How the results depend on the processing

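Well A, TMM scaling and the limits decided which genes were chosen. The 10 became 24 with the mean over spots (9 shared), 1 with right over left under 0.5, 37 with interior over edge of at least 0.8 (10 shared), 6 with TMM (0 shared), and 6 to 84 when 1 well was left out. With 2 alternatives chosen after seeing the data they became 32 (right over left averaged over zones) and 63 (wells B, C and D). The medians in the well left out moved to 1.10 for well A, 1.38 for B, 0.85 for C and 1.04 for D with matched spots, and with a pseudocount of 1 CPM to 0.73 for C and 0.97 for D.

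Within the rim, 1 of the 10 genes passed with no filter, and 0 to 1 when 1 well was left out. Over all features, 100 were higher and 105 lower, against 50 and 65 with DESeq2, 277 and 159 with no filter, 0 and 2 with no replicate block, 22 and 3 in the right side alone (added after seeing the data), 59 and 163 with at least 2 interior neighbours, 64 lower with matched spots, and 36 to 133 higher and 54 to 120 lower when 1 well was left out (36 and 54 without well C, 44 and 55 without well D). Along the length, 6 and 5 became 10 and 11 with DESeq2, 24 and 28 with no filter, 0 and 0 with no replicate block, 38 and 40 with the limit between middle and outer moved to 1/2 of the distance (wells C and D), 3 lower with matched spots, and 0 to 12 and 0 to 19 when 1 well was left out (12 and 19 without well A, 2 lower without well B, 0 and 0 without well C, 3 and 0 without well D).

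In depth, the 8 genes became 0 with DESeq2, 5 with no filter, 0 with no replicate block and 0 with matched spots, with median log2 fold changes of 0.74, 0.68, 0.77 and 0.61 against 0.79. With library totals in place of TMM factors 8 passed, at a median of 0.62. Over all features 255 and 154 became 0 and 0 with DESeq2, 115 and 240 with library totals, 77 higher with no filter, 0 and 0 with no replicate block, 19 and 17 with matched spots, and 83 lower with at least 5 interior neighbours. Leaving out a well was not run in depth, since 1 library leaves no residual spread. In no alternative was a member called lower. Few interior spots limit wells A and B.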
